A study of Mus musculus with 203 samples.

Results

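Laryngeal motor neurons of the mouse nucleus ambiguus, a column of motor neurons in the medulla, were described here across genes. They were the neurons whose deposited annotation gives the assigned cluster Larynx, 52 of the neurons in the series, and all 52 also had the larynx as their labeled target. The remaining neurons were labeled from the heart and were assigned to 53 ACP (ambiguus cardiopulmonary) and 98 ACV (ambiguus cardiovascular) neurons, which served only as reference. All were from wild-type C57BL/6 mice, given as C57BL/6NCrl in the study's methods. Per the study's methods, a fluorescent conjugate of cholera toxin B, injected into the cricothyroid muscle of the larynx or the pericardial space, labeled the cell bodies, which were aspirated from brainstem slices at postnatal day 2 to 4. Each neuron was sequenced by Smart-seq2, a method that amplifies full-length cDNA from single cells by PCR. The labels give no mouse, litter or plate, so each neuron type counted as 1 sample, no test was made, and every spread given is between neurons.

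Laryngeal motor neurons reach the muscles of the larynx through the vagus nerve and release acetylcholine at the neuromuscular junction. They are branchial motor neurons, which drive striated muscle directly, whereas the cardiac neurons of the same nucleus are parasympathetic and act through ganglia. Motor neurons of this kind are also known to carry neuropeptides, among them calcitonin gene-related peptide (CGRP), and to respond to trophic factors of the GDNF family from their targets.

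Levels are given as counts per 1000000 (CPM) after removing Rn45s, a ribosomal RNA precursor that took 26.6% to 91.5% of the counts of a laryngeal neuron (median 58.6%) and a median of 34.3% in ACP and 35.8% in ACV neurons. Laryngeal neurons held 118492 to 1821510 counts outside Rn45s, with a median of 560892 against 1115375 in ACP neurons, and 3215 to 12373 detected genes, with a median of 7593. A gene was called detected in a neuron with at least 1 read. Shares of neurons are given with 95% Wilson intervals, which cover counting error only, because PCR reads without molecular identifiers are not independent molecules.

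The labels were set beside 5 laryngeal markers (Calca, Calcb, Pnoc, Uts2, Gfra1). This is no independent check, because the study clustered these same counts and lists all 5 as enriched in these laryngeal neurons. All 5 were detected in 29 neurons, 4 in 17 neurons and 3 in 4 neurons, and none in 2 neurons. Slc18a3, the vesicular acetylcholine transporter, was under 100 CPM in 6 laryngeal neurons, at most 33.9 CPM, while the next neuron stood at 255 CPM. It was also under 100 CPM in 1 ACP and 10 ACV neurons. All 6 low neurons had at least 100 CPM of Gad1 or Slc17a6, genes of inhibitory and excitatory interneurons, as did 23 of the other 46. One of the 2 neurons without a marker had 2834 CPM of Prph, 419 CPM of Slc18a3 and 262 CPM of Ret. The other had no read of Prph or Ret, with 13925 CPM of the glial gene Apoe and the fewest counts, 118492. The 6 neurons low in Slc18a3 each had reads of 3 or 4 of the 5 markers, but at levels within the range of cardiac neurons. In them Calca ran from 1.92 to 156.6 CPM, Calcb from 0 to 47.8 CPM and Gfra1 from 4.67 to 56.5 CPM. Pnoc ran from 26.4 to 244.7 CPM, Ret from 6.35 to 161.9 CPM and Prph from 43.2 to 786.8 CPM. These 6 and the 2 without a marker, 8 neurons in all, were thus low in Slc18a3 or had no marker read. Results are given with all 52 neurons and, for some values, with the 44 others. No neurons were duplicates, since the highest Pearson correlation of log2 levels between any pair of laryngeal neurons was 0.64 and the median was 0.35.

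Genes known from other cell types were read in the aspirates. The summed level of 7 astrocyte genes was 20.9 to 16845 CPM with a median of 1526 in laryngeal neurons, and the medians were 1510 in ACP and 1310 in ACV neurons. The 7 genes of the oligodendrocyte lineage summed to 0 to 4311 CPM (median 204), and 6 microglial genes to 0 to 1998 CPM (median 18.6). Endothelial and mural genes had a median of 0, and the 3 hemoglobin genes had no read. The 2 glutamatergic genes had a median of 79.9 CPM against 9.6 in ACP and 7.9 in ACV neurons, and 4 GABA and glycine genes 58.2 against 28.4 and 9.6. The part of these cells in the results was not tested.

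Laryngeal neurons expressed 7411 genes at a mean of at least 10 CPM and in at least 50% of neurons, or 30.8% of the 24028 genes of the table other than Rn45s. In the whole table, 17229 genes were detected in at least 1 laryngeal neuron and 530 in all 52. Per kilobase of exon, the highest mean level was that of Tuba1a, an alpha tubulin, at 4366 CPM per kilobase. It was followed by the neurofilament light chain Nefl at 2744, the microtubule regulator Stmn3 at 2458, the calmodulin gene Calm2 at 1907, and the beta tubulins Tubb3 and Tubb2a at 1821 and 1820 CPM per kilobase. Calca stood 9th at 1244 CPM per kilobase and Calcb 11th at 1066, above the intermediate filament gene Prph at 970. The CGRP precursor genes thus ranked with the cytoskeleton in mean level, although the level of Calca differed widely between neurons.

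Calca and Calcb encode the precursors of alpha and beta CGRP. Calca lies on chromosome 7 at 114631478 to 114636357 on the minus strand (GRCm38, the mm10 build). Its level in laryngeal neurons ran from 0 to 13016 CPM with a median of 947, and the mean was 2095 ± 2725 CPM (SD, n = 52). It was detected in 96.2% of the neurons (95% interval 87.02% to 98.9%). In ACP neurons the highest level was 744 CPM and in ACV neurons 563 CPM, so the upper part of the laryngeal range lay above every cardiac neuron, whereas the lower part overlapped them, with a 25th percentile of 148.3 CPM. Calcb ran from 0 to 7781 CPM with a median of 917 and a mean of 1347 ± 1561 CPM, and was detected in 88.5% (77.03% to 94.6%). The 2 genes are paralogs, and reads of their shared sequence may have been divided between them in the authors' counting.

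The other 3 markers were less abundant. Pnoc, the precursor of nociceptin, ran from 0 to 1185 CPM (median 244, mean 302 ± 296 CPM, detected in 90.4%, 79.4% to 95.8%). Uts2, the precursor of urotensin 2, was the most restricted, with a median of 14.6 CPM, a highest level of 838 CPM and reads in 61.5% of neurons (47.96% to 73.5%). At 100 CPM or more it was present in 11 of 52 neurons. Gfra1, the GDNF co-receptor, ran from 0 to 2857 CPM (median 680, mean 770 ± 597 CPM, detected in 96.2%). Its highest level was 265 CPM in ACP and 343 CPM in ACV neurons, while the 25th percentile of laryngeal neurons was 337 CPM, so most laryngeal neurons lay above all ACP neurons.

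**Figure D1:**
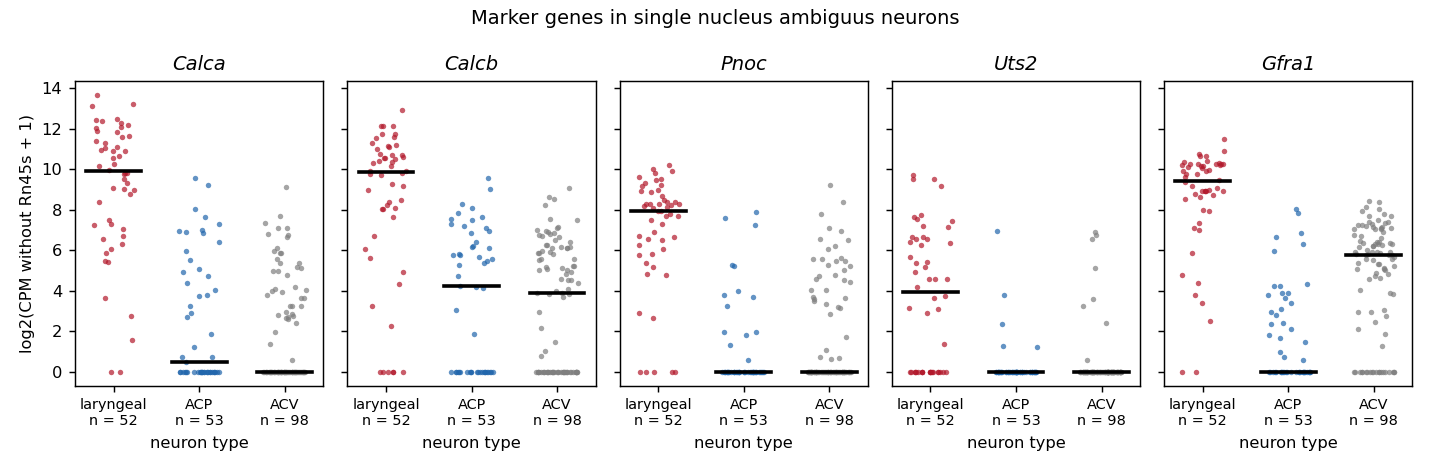
Levels of 5 marker genes in single neurons, as log2 of CPM without Rn45s plus 1, for 52 laryngeal, 53 ACP and 98 ACV neurons. Each point is 1 neuron and the bar is the median. Laryngeal medians lie above the cardiac medians for every marker, and 20 laryngeal neurons have no read of Uts2.

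The mean level of laryngeal neurons was set against those of ACP and of ACV neurons as a ratio with 1 CPM added to each mean. Among 10691 genes with a mean of at least 10 CPM in any type, 0.963% were at least 4-fold higher than in both cardiac types and 34 (0.318%) at least 4-fold lower. Of the higher genes 44 were detected in at least 50% of laryngeal neurons and 59 in fewer, and in 15 of them a single neuron held over 50% of the summed level. With Rn45s kept in the total only 24 genes passed as higher, and with 10 in place of 1 CPM added to each mean 17 were higher and 7 lower. Depth differed between the types, and library batch and type cannot be told apart. The 5 markers, which the study lists from these same neurons, were all among the higher genes. Their ratios were 38.9 over ACP and 88.1 over ACV for Calca, 25.9 and 19.7 for Uts2, 17.2 and 27.3 for Calcb, 21.03 and 12.4 for Pnoc, and 38.8 and 10.7 for Gfra1. Col1a1, a collagen gene with a ratio of 19.1 over ACV, had 66.9% of its level in 1 neuron, and the immune receptor gene Clec7a had reads in 1 neuron alone.

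Of 26 neuropeptide precursor genes, 12 were expressed and 8 were at least 4-fold higher than in both cardiac types, with none lower, beside 0.963% higher and 30.8% expressed over all genes, and the median ratio of the 21 with enough reads was 2.91 over ACP and 3.32 over ACV, beside 1.02 over each for all genes. Beyond the markers these were Trh, Pdyn, Cartpt and Ucn. The study lists Calca, Calcb, Pnoc, Uts2, Trh and Cartpt as enriched in these same laryngeal neurons. Neither the count nor the median ratio is therefore independent of that list. Trh, the precursor of thyrotropin-releasing hormone, had a mean of 202.7 ± 449 CPM but a median of 0, with reads in 48.1% of neurons (35.1% to 61.3%) and a highest level of 2444 CPM. Pdyn, the precursor of dynorphins, ran from 0 to 6304 CPM with a median of 211 and a mean of 652 ± 1211 CPM, 11.03 times ACP and 4.07 times ACV. Cartpt, the precursor of the CART peptides, had a median of 27.9 CPM and a highest level of 1297 CPM, and Ucn, the precursor of urocortin, had reads in 17.3% of neurons. Of 11 granin and peptide processing genes 10 were expressed, and none passed the 4-fold size that 0.963% of all genes passed as higher, with a median ratio of 1.02 over ACP and 1.03 over ACV. The granin gene Chga, at 937 ± 689 CPM, and the processing enzyme gene Cpe, at 1300 ± 594 CPM, had reads in every neuron. Of 7 receptor genes for CGRP, urotensin 2 and nociceptin 2 were expressed. Calcrl, the CGRP receptor, had a mean of 1.36 CPM and Uts2r, the urotensin 2 receptor, 1.94 CPM, while Oprl1, the nociceptin receptor, was expressed at 151.5 ± 138.7 CPM.

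The cholinergic and motor neuron genes were read in all 3 neuron types. All 8 were expressed in laryngeal neurons and none passed the 4-fold size, with median ratios of 1.18 over ACP and 1.16 over ACV. Slc18a3 had a mean of 1501 ± 1044 CPM, against 1035 in ACP and 690 in ACV neurons, the choline transporter Slc5a7 481 ± 368 CPM, and Isl1, a transcription factor of motor neurons, 201.9 ± 164.7 CPM. The transcription factor gene Phox2a was 10.2 times ACP and 15.2 times ACV, at 32.6 ± 54.4 CPM. Lhx4 and Pou3f1 were the other higher members of 18 motor neuron transcription factors, at 8.37 and 4.25 times ACP, and Tbx3 was the lower one, at 0.12 and 0.15. Over all genes compared, 0.963% were higher and 0.318% lower. The study lists Phox2a, Lhx4, Pou3f1 and Tbx3 as differing between these same neurons. Mnx1 and Lhx3, transcription factors of spinal motor neurons, had no read in 52 neurons, which allows a share of neurons with reads of up to 5.77%. Hox genes of paralog groups 2 to 8 were sparse, with 2 of 20 expressed and none past the 4-fold size in either direction.

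Among 15 trophic factor receptors, Ret, the signaling receptor of the GDNF family, and Gfra1 were higher, and the hepatocyte growth factor receptor Met was lower, at 0.08 and 0.10. Over all genes compared, 0.963% were higher and 0.318% lower. Ret ran from 0 to 5788 CPM (median 760) and was 5.23 and 7.94 times the cardiac types. Gfra2, the co-receptor for neurturin, had a mean of 9.36 CPM against 108.1 in ACP neurons, but did not pass as lower than both cardiac types. The study lists Gfra2 as enriched in cardiac over laryngeal neurons and in ACP over ACV neurons. Motor neurons are divided by the muscle fibers they supply. Of 3 genes of fast motor neurons Chodl and Dlk1 were higher, at 5.63 and 12.5 times ACV, and of 4 genes of gamma motor neurons Gfra1 and the Wnt ligand gene Wnt7a, at 7.41 and 5.96 times ACP and ACV. None of 3 alpha and 2 slow motor neuron genes passed. The study lists Dlk1, Gfra1 and Met as differing between these same neurons. Chodl had a median of 185.1 CPM and a highest level of 3019 CPM, and Dlk1 a highest level of 120 CPM. The NeuN gene Rbfox3, which marks alpha motor neurons, was at 126.7 ± 108.1 CPM and had reads in 86.5% of neurons. It was the only expressed gene of the 3 alpha motor neuron genes.

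Ion channel and receptor genes are read against the 0.963% of all genes that passed as higher and the 0.318% that passed as lower, so that counts of 0 or 1 in lists of this size say little. Of 31 potassium channel genes 22 were expressed, 29 could be compared and 1, Kcna1, was at least 4-fold higher than both, at 64.6 CPM. None of 23 sodium, calcium and HCN channel genes passed, although Scn8a was 3.31 and 3.12 times higher. The median ratio of the potassium channels was 1.47 over ACP and 2.28 over ACV, beside 1.02 and 1.02 for all genes. Of 23 glutamate receptor genes Gria3, a subunit of AMPA receptors, was higher, at 128.5 ± 152.3 CPM, and of 33 monoamine and peptide receptors Tacr1 and Adra1d were higher, while Npy2r was lower, at 0.87 CPM. The study lists Kcna1, Gria3, Tacr1, Adra1d and Npy2r as differing between these same neurons, so these calls are not independent of that list. No acetylcholine, GABA or glycine receptor passed. The neurofilament genes Nefm and Nefh were 2.73 and 2.44 times ACP. None of 12 neurofilament and axon genes passed 4-fold, and their median ratio was 1.03 over ACP and 0.91 over ACV.

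Genes at least 4-fold lower, 0.318% of those compared, included 4 of 7 cardiac markers, Tbx3, Npy2r, Cnr1 and Bche. From these same neurons the study lists Tbx3, Npy2r and Cnr1 as enriched in cardiac neurons and Bche in ACV neurons. The count of cardiac markers is therefore no independent result. The cannabinoid receptor gene Cnr1 was at 17.1 CPM against 224 in ACP and 118.5 in ACV neurons, and the cholinesterase gene Bche at 1.33 CPM against 14.6 and 99.4. Cardiac markers summed to 0 to 419 CPM in laryngeal neurons, with a median of 45.9, against medians of 763 and 369 in ACP and ACV neurons. Tm4sf4 and Mia2 had no read in any laryngeal neuron, which allows a share of neurons with reads of up to 5.77%. From counts pooled over neurons, with a floor of 3 counts over the laryngeal group, Tm4sf4 was at least 291-fold lower than in ACP neurons and at least 685-fold lower than in ACV neurons, yet 59 of the cardiac neurons also had none, as did 55 for Mia2. Tuba1c ran to 39.7 CPM in laryngeal neurons, and 70 of the cardiac neurons lay at or below that level. It is a close paralog of Tuba1a, so its reads may be divided. With no plate or litter in the labels, neuron type and batch cannot be told apart for these 3 genes.

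The spread between laryngeal neurons was measured as the coefficient of variation (CV, SD divided by mean) and compared with genes of like mean, by its ratio to the median CV of the genes nearest in mean. The median CV was 1.90 for genes of 10 to 50 CPM and 0.55 for genes of 500 CPM or more, so low genes varied more, with counting error included. Of 9772 genes, 1.4% had at least 2 times the CV of their neighbors. In 77 of them a single neuron held over 50% of the summed level, and 60 had no such neuron. The count depended on scale, with 40 genes when Rn45s stayed in the total and 16 by the SD of log2 levels. Ttr, the transport protein of the choroid plexus, led with 12.1 times and 89.5% of its level in 1 neuron. Col1a1 at 6.55 and Col1a2 at 4.99 times, Reg3b at 4.91 and Tcf7l2 at 4.20 followed.

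Of 19 neuropeptide precursor genes with a spread, 8 were among those of wide spread, beside 1.4% of all genes. The CV of Pdyn was 3.21 times that of its neighbors, of Trh 2.79 times and of Calca 2.48 times, and those of Calcb and Cartpt were 2.21 and 2.04 times. The neuron highest in Calca held 11.9% of its summed level and that highest in Pdyn 18.6%, so several neurons made up these spreads. Timp3, a protease inhibitor gene, was at 3.02 times, and the fast motor neuron gene Chodl at 2.25 times. The CV was 0.32 for the microtubule regulator Stmn2 and 0.56 for Nefl, beside the median of 0.55 for genes of 500 CPM or more, and 12 neurofilament and axon genes had a median of 0.93 times the CV of their neighbors. Without the 8 neurons, 92 of the genes of wide spread passed again and 25 others were added.

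**Figure D2:**
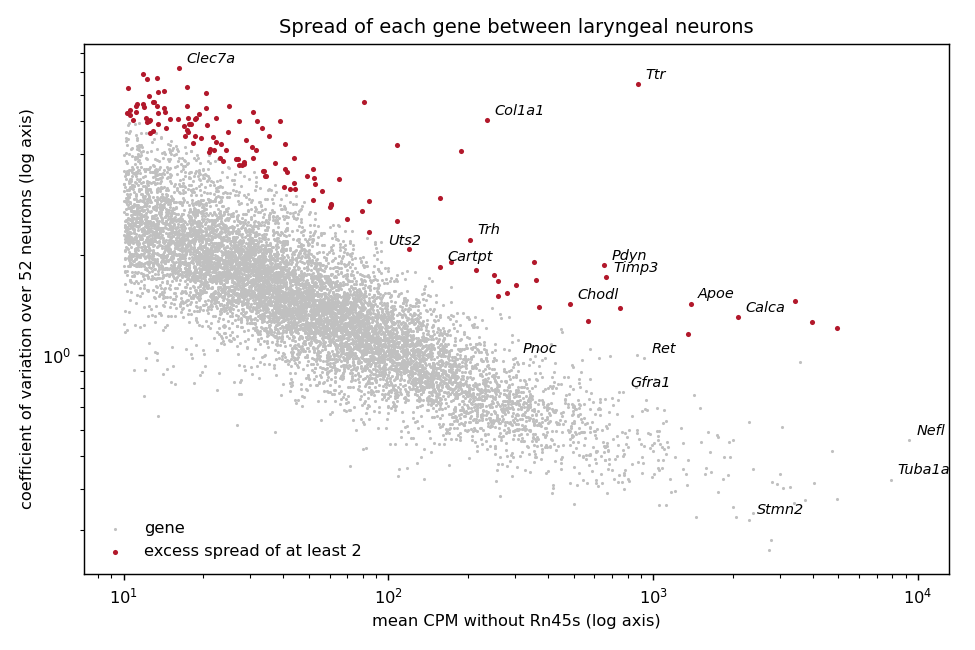
Coefficient of variation over 52 laryngeal neurons against mean CPM without Rn45s, both on log axes, for 9772 genes with a mean of at least 10 CPM. Red points mark the genes with at least 2 times the spread of genes of like mean, among them Ttr, Col1a1, Trh, Pdyn and Calca, while the abundant genes Stmn2, Nefl and Tuba1a lie to the right at low CV.

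Gene-gene correlation was measured by Spearman's rho over the 52 neurons, for 3220 genes with reads in at least 80% of neurons and a mean of at least 50 CPM. The points share library preparation, depth and aspirated material, and genes detected per neuron correlated with the counts outside Rn45s (rho = 0.55) and with the Rn45s share (rho = -0.41). Over 5182590 pairs the median rho was 0.03. A rho of at least 0.6 was found in 5569 pairs and of at most -0.6 in 969, together 0.126% of pairs. With Rn45s in the total 42544 pairs reached 0.6 and 0 reached -0.6, so both counts depend on the scaling.

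Leaving aside paralogs on 1 chromosome such as Calca and Calcb, most of the 15 highest pairs were of nuclear RNAs or held a ribosomal protein gene. Meg3 and Snhg11, long noncoding RNAs, had rho = 0.94, Malat1 and Meg3 0.92, and Meg3 and Miat 0.91. In the same order, rho was 0.96, 0.90 and 0.68 in ACP neurons and 0.98, 0.93 and 0.72 in ACV neurons. The summed level of these 4 RNAs ran from 134.5 to 55943 CPM. It had rho = 0.35 with genes detected and 0.01 with the Rn45s share. Among 59 ribosomal protein genes in the set, 533 of 1711 pairs reached 0.6 and the median was 0.53, and their summed level had rho = 0.65 with the Rn45s share. Rpl41 correlated with Tmsb10, a small actin-binding protein gene, at 0.88, and with Rpsa at 0.86, or 0.79 and 0.69 with genes detected, Rn45s share and depth held constant by rank. Whether these shared factors set those pairs was not tested. Apart from these, the actin gene Actg1 and Tubb2a had rho = 0.84, against 0.60 in ACP and 0.63 in ACV neurons. Atp2b1, a calcium pump gene, and the synaptotagmin gene Syt2 had rho = 0.83, against 0.26 in ACP and 0.28 in ACV neurons.

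Among the peptide, receptor and cholinergic genes, Calca and Calcb had rho = 0.92 (Pearson r of log2 levels 0.92), or 0.92 without the 2 neurons farthest from the median of Calca, and 0.89 in the 44 neurons. Both were correlated with Chodl, at 0.71 and 0.73, and with Slc10a4, a transporter gene of cholinergic vesicles, at 0.73 and 0.78. Slc10a4 and Slc5a7 themselves had rho = 0.83. In the 44 neurons, Calca and Calcb had 0.65 and 0.69 with Chodl and 0.58 and 0.65 with Slc10a4, and Slc10a4 and Slc5a7 had 0.72. Gfra1 and Ret had rho = 0.83, Pnoc and Ret 0.66, Pnoc and Uts2 0.61, Pnoc and Cartpt 0.61, and Uts2 and Ret 0.61. For the 5 pairs from Gfra1 and Ret to Uts2 and Ret, the values in the 44 neurons were 0.72, 0.597, 0.53, 0.52 and 0.48. Of these 5 pairs Gfra1 and Ret alone remained at 0.6 or more. Gfra1 was also correlated with Slc10a4 at 0.71, with Slc5a7 at 0.64 and with Calca at 0.56, or 0.53, 0.41 and 0.30 in the 44 neurons. In ACP and ACV neurons, where Gfra1 was low, Gfra1 and Ret had rho = 0.12 and 0.26. Pairs with Calca or Calcb were not all low there. In ACP neurons Calca had rho = 0.53 with Calcb, 0.56 with Chodl and 0.51 with Slc10a4. The ACV values were 0.38, 0.01 and 0.04. Calcb had 0.44 with Chodl and 0.45 with Slc10a4 in ACP neurons, and 0.09 and 0.20 in ACV neurons.

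Other pairs of these genes had a low or negative rho. Calca and Uts2 had rho = 0.07, or -0.26 in the 44 neurons. Chodl and Cartpt had rho = -0.35 and, in the 44 neurons, -0.60. At 100 CPM or more, Chodl alone was present in 27 neurons, Cartpt alone in 10, both in 7 and neither in 8. Trh and Pdyn had rho = -0.37 (-0.48 in the 44 neurons), with many ties because 27 of the 52 neurons had no read of Trh. At the same level, Trh alone was present in 7, Pdyn alone in 25, both in 5 and neither in 15. Trh and Pdyn thus did not exclude each other. Gad1 and Gad2, genes of GABA synthesis, had rho = 0.63 with each other and -0.36 and -0.46 with Slc18a3, and with technical factors held constant the values were 0.38, -0.09 and -0.24.

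**Figure D3:**
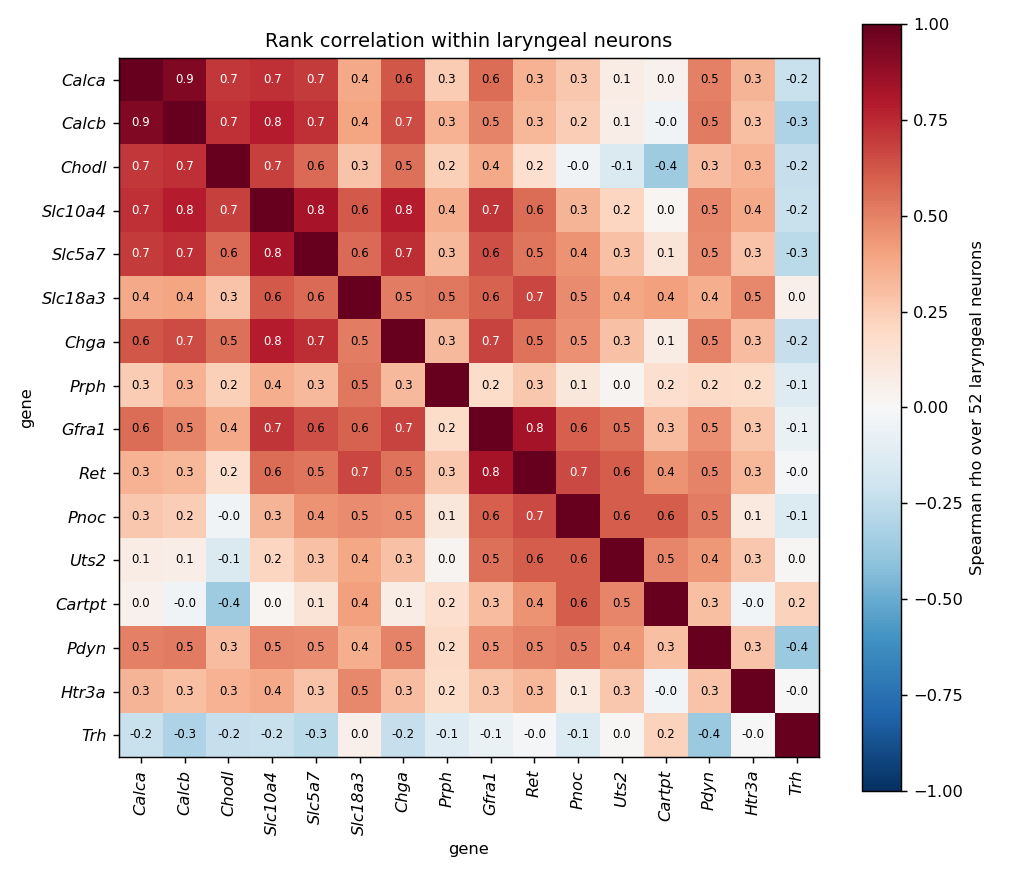
Spearman rho of 16 genes over 52 laryngeal neurons, with the value printed in each square and red for positive and blue for negative values. Calca, Calcb, Chodl, Slc10a4 and Slc5a7 form a red block, Gfra1, Ret, Pnoc and Uts2 another, Gfra1 is also red with Slc10a4 and Slc5a7, and Chodl with Cartpt and Trh with Pdyn are blue.

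**Figure D4:**
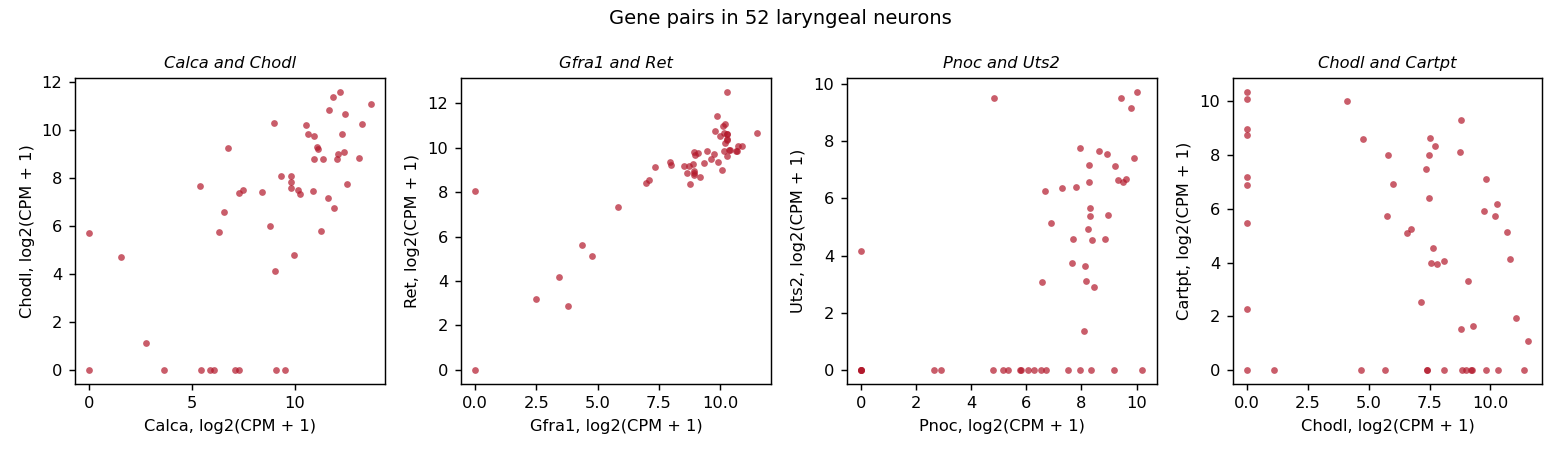
Levels of 4 gene pairs in 52 laryngeal neurons, each axis in log2 of CPM without Rn45s plus 1 and each point 1 neuron. Calca and Chodl, and Gfra1 and Ret, are high in the same neurons. Of the 17 neurons with at least 100 CPM of Cartpt, 10 are below that level of Chodl and 7 are not.

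For the genes nearest each marker, Calca was followed by Calcb, Slc10a4 and Atp2b1 (0.72), Calcb by Calca, Slc10a4 and Resp18 (0.77), and Gfra1 by Ret, Syt11 (0.77) and Atp2b4 (0.76). Pnoc was nearest to Timp3 (0.67), Ret and Gfra1 (0.59), and Uts2 to Hrk (0.62), a gene of the apoptosis pathway, Ret and Pnoc. Without the 8 neurons each of these had a rho of at least 0.48.

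The sequences before the start sites of 4 of these genes are shown to set the pairs beside their promoters, since Calca and Chodl were correlated and Chodl and Cartpt were inversely related. They are the 250 bases before each RefSeq start, 5′ to 3′ on the strand of the gene in GRCm38.p6. Capitals mark TGACG or CGTCA, the short site bound by CREB-type factors, TATAAA or TTTATA, and TAATTA, searched on both strands and allowed to overlap. Of 32851 promoters of this length, 17.8% held the first, 12.4% the second and 4.84% the third. Their places are chr7:114636358-114636607 (minus strand) for Calca, chr16:78930698-78930947 (plus) for Chodl, chr4:150996847-150997096 (plus) for Uts2 and chr13:99900684-99900933 (minus) for Cartpt.
Calca: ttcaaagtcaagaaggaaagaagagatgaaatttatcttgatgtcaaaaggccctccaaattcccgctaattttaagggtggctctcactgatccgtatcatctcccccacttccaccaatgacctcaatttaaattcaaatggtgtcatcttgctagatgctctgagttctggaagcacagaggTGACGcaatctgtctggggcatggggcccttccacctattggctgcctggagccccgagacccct
Chodl: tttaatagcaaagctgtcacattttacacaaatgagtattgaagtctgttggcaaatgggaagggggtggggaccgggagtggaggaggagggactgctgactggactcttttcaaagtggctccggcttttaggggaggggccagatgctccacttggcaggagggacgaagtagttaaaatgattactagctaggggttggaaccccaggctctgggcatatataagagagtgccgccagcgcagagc
Uts2: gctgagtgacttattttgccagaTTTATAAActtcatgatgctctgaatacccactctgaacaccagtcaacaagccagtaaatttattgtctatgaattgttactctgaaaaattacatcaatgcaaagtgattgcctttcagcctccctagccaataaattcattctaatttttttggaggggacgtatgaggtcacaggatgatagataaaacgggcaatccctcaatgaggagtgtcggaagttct
Cartpt: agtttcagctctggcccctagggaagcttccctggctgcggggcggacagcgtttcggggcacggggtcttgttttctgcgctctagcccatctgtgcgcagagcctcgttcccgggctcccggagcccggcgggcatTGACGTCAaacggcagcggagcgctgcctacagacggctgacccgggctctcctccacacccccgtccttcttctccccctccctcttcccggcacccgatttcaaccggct
The Calca window held 1 CREB-type match and the Cartpt window 2 that overlap on the 2 strands as TGACGTCA. The Uts2 window held 2 overlapping matches of TATAAA and TTTATA, near the end farthest from the start site. The Chodl window held no match of the exact strings searched. It does hold TATATAA close to the start site, a string that the search did not cover. These are matches of letters and do not show binding.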

How the data were processed

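Each neuron was a sample. Per the labels and the study's methods, the authors trimmed reads with Skewer, aligned them to mm10 with STAR 2.6.1d and deposited raw read counts per gene symbol; the counting program and annotation were not given in the sources used here. A second deposited table, named as CPM, was not used, because its columns are counts divided by the totals of other neurons. Every sample column was mapped to a neuron by title, and the deposited annotation of target and cluster was used as given.

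Counts other than Rn45s were scaled to CPM by each neuron's total without Rn45s, with Python 3.11.15 and its libraries numpy, pandas and scipy. Exon lengths and coordinates were those of GENCODE vM21, matched for 97.8% of symbols. Genes named are those of fixed lists (up to 10 examples a list), the 20 highest per kilobase, the 15 with the largest and 10 with the smallest ratio, the 15 with the largest excess spread, the 15 pairs with the largest absolute rho among pairs on different chromosomes or of different gene families, and the 3 genes nearest each marker. Spread was compared with the running median over 201 genes. The members and lists were chosen with earlier results of these data known. The calculations were tested on simulated data. Alternatives were other scalings (edgeR 4.0.16 TMM, DESeq2 1.42.0 size factors), thinning, filters and thresholds. The 8 neurons left out were chosen after their values were seen. Some genes of the lists are not reported here.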

Additional observations from a re-analysis of the deposited data

How the results depend on the processing

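Under the alternatives 33 main values passed a limit of difference, and the others did not. The limit was 1.5 times for counts, the 95% interval for shares and the SD between neurons for mean levels. That SD is wide and hides large changes of marker levels. With Rn45s in the scaling total, mean Calca went from 2095 to 954 CPM, Calcb from 1347 to 607 and Gfra1 from 770 to 342, all within the limit. Of the values of single gene pairs, 95 stayed and 4 did not. Counts of pairs are given as a percent of the pairs tested and counts of genes by ratio as a percent of the 24028 genes of the table, where the values as reported were 0.107% of pairs at 0.6 or more, 0.0187% at -0.6 or less, 0.429% of genes higher and 0.142% lower. The cause of each difference was not tested, beyond the fewer genes or neurons that a filter leaves.

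With Rn45s in the scaling total, 40 genes had wide spread, 2.51% of pairs reached 0.6, 0% reached -0.6 and 0.0999% of genes were higher. The share at -0.6 was 0.00608% with TMM and 0.0081% with median-of-ratios size factors. Thinning every neuron to 118492 counts left 3373 pairs (0.106%) at 0.6 and 637 (0.0199%) at -0.6 among fewer genes. With the 49 neurons of at least 200000 counts, 72 genes had wide spread and 0.0312% of pairs reached -0.6.

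With at most 900 Apoe counts (38 laryngeal, 26 ACP and 44 ACV neurons), Calca and Gfra1 were each read in 100% of laryngeal neurons, 0.19% of pairs reached 0.6 and 0.0596% reached -0.6, and 0.687% of genes were higher and 0.254% lower. Chodl and Cartpt then had rho = -0.51 and Calca and Uts2 -0.08. Another alternative, chosen after seeing the data, left out the 8 neurons low in Slc18a3 or without a marker read. Calca and Gfra1 were then read in 100% and Calcb in 97.7% of neurons, and 0.0316% of pairs reached -0.6.

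A minimum mean of 50 CPM left 44 genes of wide spread, and the SD of log2 levels 16. Pearson's r gave 0.246% of pairs at 0.6 and 0.00315% at -0.6. Ratios with 10 CPM added gave 0.0708% of genes higher and 0.0291% lower, no minimum mean 0.687% and 0.237%, a trimmed mean 0.258% lower, a 2-fold size 2.14% and 1.04%, and an 8-fold size 0.0999% and 0.0499%. The rank correlation of Gfra1 and Ret ran from 0.72 to 0.86 and of Calca and Calcb from 0.89 to 0.94 over all alternatives. No paired analysis was possible because no label ties neurons of one type to those of another. Depth limits genes of low mean, where a neuron without a read may still express the gene.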
